A study of Bombus terrestris with 25 samples.

Results

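Bumble bee queens (Bombus terrestris) at the end of a cold diapause were compared with queens sampled shortly after CO2 narcosis, 5 of each out of the 25 queens in the study. The members were the 10 read count columns that the count table names for those treatments. Each library was polyA RNA of 1 queen, taken from the eviscerated abdomen with its attached fat body. The other 15 queens, mated queens and egg-laying founders after either treatment, entered the fit as sources of the spread between queens. Mated queens were 5 to 10 days old and founders after CO2 1.5 months. Founders after diapause were 4 months old and had spent 9 to 10 weeks at 4 C. Mated replicate 5 was of line_426, a genetic line that no other queen of the study shared.

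All 10 queens had mated in the laboratory with unrelated males, and treatment began on the day of mating. Diapause queens were kept at 4 C for 9 to 10 weeks and sampled at the end of that period, at an age of 3 months by the sample labels and 2.5 months by the series text. CO2-treated queens were 5 to 10 days old, were narcotised in a group with pure CO2 and again on the next day, and were sampled 24 h afterwards. They were kept warm, dark and fed throughout, while diapause queens were fed until the cold began. Cold, age, time since mating, feeding and gas therefore changed together and cannot be told apart. Both groups held 1 queen of each of 5 genetic lines, line_141, line_51, line_296, line_207 and line_191, which gave 5 pairs of queens of the same line. None of the 5 groups held untreated queens of the diapause age.

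Diapause is a programmed arrest in which a newly mated queen lives on fat, glycogen and protein stored in her fat body, an organ that does the work of liver and adipose tissue in insects. CO2 narcosis is used by bumble bee breeders because narcotised queens skip the arrest and start laying. The fat body also makes vitellogenin, the yolk precursor, under the control of juvenile hormone and of insulin and TOR signalling. In bulk tissue, fewer cells of a type and less RNA per cell cannot be told apart, and this holds for each gene below.

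Before any gene is described, 2 of the 10 libraries need to be set apart. CO2-treated replicate 3 (line_51) had 534806 counts in the table, against 2624582 to 3618454 in the other 9, and is less precise than these. Diapause replicate 1 (line_141) went against its label. On the first principal component of the 10 queens, which held 58.15% of the variance, diapause replicates 2 to 5 scored 42.27, 43.56, 47.64 and 21.34. Diapause replicate 1 scored -40.61, below each CO2-treated queen, whose scores were -25.33, -22.08, 9.023, -37.3 and -38.51. Its median absolute difference over the 3793 genes was 0.21 on the log2 scale from CO2-treated replicate 5, the other queen of line_141, rank 3 from the smallest among the 300 pairs of libraries in the study. From the other 4 diapause queens it differed by 0.74 to 1.15, while those 4 differed among themselves by 0.18 to 0.61. From mated queens it differed by 0.31 to 0.83. When it was left out, 1093 genes were called between the groups, and in 1073 of these, 98.17%, its own level was nearer the CO2-treated mean than the mean of the other diapause queens. The same share for the shallow CO2-treated replicate 3 was 52.45%, 107 of the 204 genes called without it, and for the other 8 queens 0% to 7.792%. Those 8 shares are over only 64 to 84 genes each, called with diapause replicate 1 in the fit. The shares thus come from unlike sets of genes. Diapause replicate 1 lay inside the CO2-treated range in 730 of the 1093 genes and inside the range of the other diapause queens in 19. Its total of 3043931 counts was within the range of the others. Whether this library was mislabelled, or came from a queen whose abdomen differed in this way, was not tested. Counts of called genes are therefore given with it and without it.

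**Figure D1:**
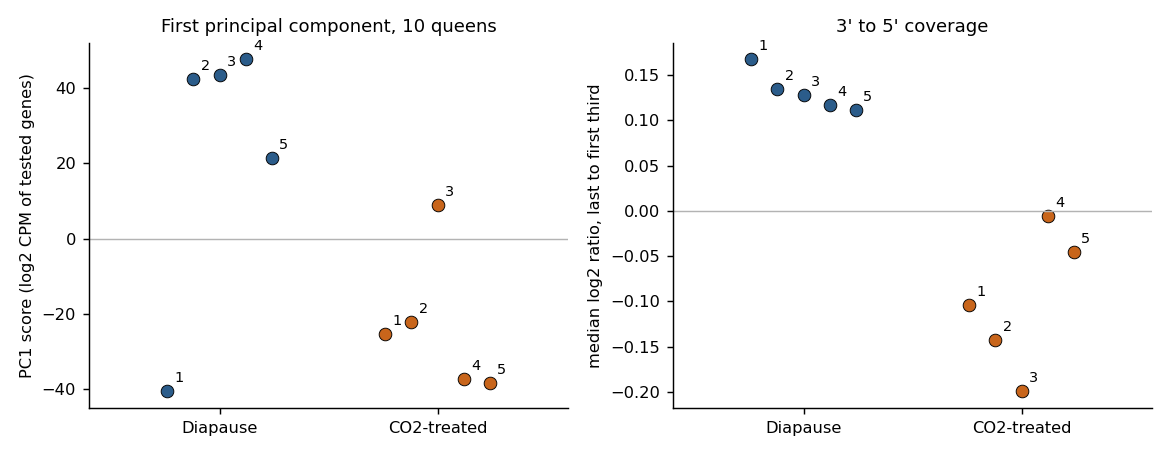
Score of each of the 10 queens on the first principal component of log2 CPM (left). The 3' to 5' coverage of each library, as a median log2 ratio, is on the right. The replicate number is beside each point. CPM is a count scaled to the product of the library's total over the genes tested and its TMM factor. Diapause replicate 1 lies at -40.61 on the left, beside the CO2-treated queens, and at 0.1675 on the right, with the other diapause queens.

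With 5 queens in each group, edgeR called 244 of 3793 genes, 6.43%, at an adjusted p under 0.05. Of these 214 were higher in diapause, 5.64% of the genes tested, and 30 lower, 0.791%. The median log2 fold change, diapause over CO2-treated, was 1.59 among the higher genes, and the median of the lower genes was 1.43 in size. Without diapause replicate 1 the call covered 1093 genes, 28.8%, of which 499 were higher (13.2%) and 594 lower (15.7%). The 244 calls were among these 1093, of which they made up 22.32%. In this fit the balance of directions thus went from 214 against 30 to 499 against 594 when 1 library was left out. With the genetic line as a block, 130 genes were called (3.43%), 115 higher (3.03%) and 15 lower (0.395%), and 119 of them were among the 244 with the same sign. With that block and without diapause replicate 1, 851 were called (22.4%), 386 higher (10.2%) and 465 lower (12.3%).

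Leaving out any other of the 10 queens lowered the count. It was 65, 69, 204, 64 and 68 without CO2-treated replicates 1 to 5, and 68, 84, 75 and 77 without diapause replicates 2 to 5. Of the 3793 genes, 53 were called in each of the 25 fits that left out 1 library, 49 higher in diapause and 4 lower, and these 53 were also called with the line as block. Those fits still drew on the queens of the other groups for the spread. On the 10 libraries alone 25 genes were called, and 48 of the 60 named genes called over all queens were not. With the line as block, the 10 libraries gave 577 calls, 291 higher and 286 lower, with diapause replicate 1 kept in. The groups did not overlap in 101 genes, 2.66%, with 60 higher (1.58%) and 41 lower (1.08%). Without diapause replicate 1 they did not overlap in 1214, 32%, with 700 higher (18.5%) and 514 lower (13.6%). By this measure more genes were higher than lower with and without that queen. Among the 244 called genes, 155 had the same sign within each of the 5 lines, as did 26.07% of all genes tested.

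**Figure D2:**
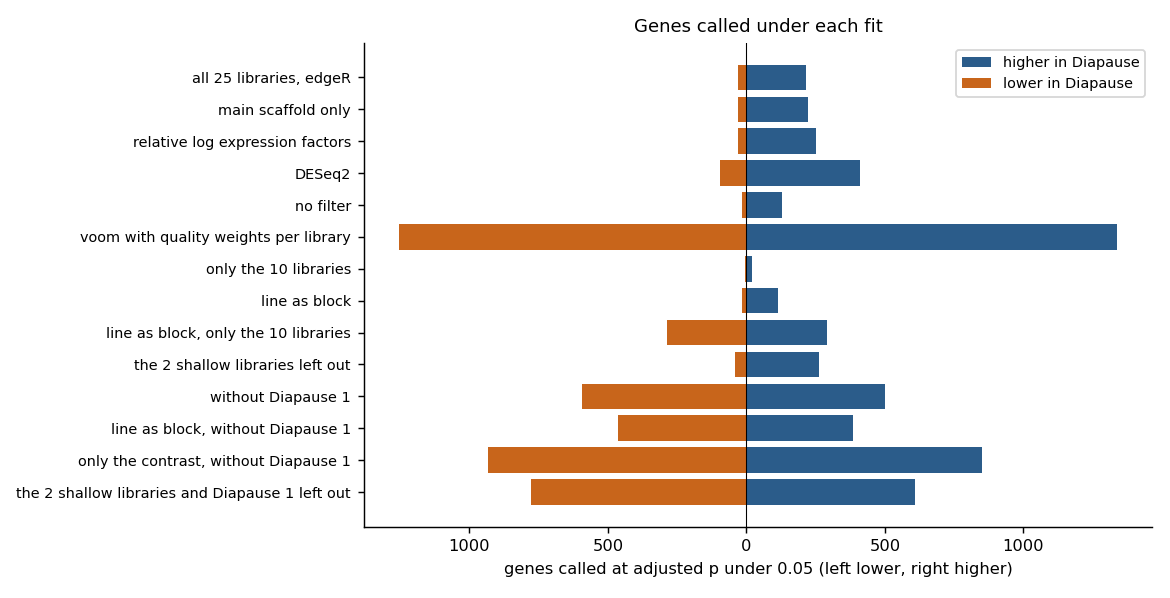
Number of genes called at an adjusted p under 0.05 in each fit, with genes higher in diapause to the right of 0 and lower to the left. Fits without diapause replicate 1 call more genes lower than higher, from 465 to 933 lower, whereas the edgeR fit of all 25 libraries calls 214 higher and 30 lower.

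Yolk precursor RNA was high at the end of diapause and low after CO2. Levels are given as CPM, the gene's counts scaled to the product of the library's total over the genes tested and its TMM factor. Vitellogenin-6-like (LOC100643258) is named for a yolk precursor that the fat body exports to the egg. It had 349.3, 6936, 8241, 2668 and 7503 CPM in diapause replicates 1 to 5. After CO2 it had 35.14, 133.5, 85.9, 121.1 and 53.11 CPM. Each diapause queen was above each CO2-treated queen, and replicate 1 was the lowest of its group. The log2 fold change was 5.91 ± 1.01 (SE, n = 5 and 5, edgeR adjusted p = 0.00175), or 6.14 ± 0.95 without diapause replicate 1. Within line_141 the difference of log2 CPM was 2.70, and in the other 4 lines it was 5.94 to 6.32. In mated queens the gene ran from 48.59 to 4952 CPM, a range that overlaps both treatments.

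The 2 hexamerin-like genes of the table, named for storage proteins that larvae and queens lay down, were not called. LOC100650745 had 3424, 2690, 1199, 732.6 and 2816 CPM in diapause and 3504, 7838, 137.4, 18870 and 3336 after CO2, so that the CO2-treated queens spread far wider than the diapause queens. Its log2 fold change was -1.63 ± 1.09 (edgeR adjusted p = 0.348). LOC100650380 was at 2.33 to 5.60 CPM in diapause and 2.96 to 8.43 after CO2 (-0.46 ± 0.50, edgeR adjusted p = 0.568).

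The clock gene cryptochrome-1-like (LOC100647270), whose relatives repress the circadian loop or sense blue light, was far higher in 4 of the 5 diapause queens. Diapause queens had 132.8, 813.7, 903.1, 909.3 and 749.8 CPM and CO2-treated queens 126.8, 130.7, 106.2, 112.4 and 122.3. The queens of diapause replicates 2 to 5 were far above the other group, and diapause replicate 1 was just above its highest queen. The log2 fold change was 2.55 ± 0.44 (edgeR adjusted p = 0.00175), and mated queens had 69.2 to 150.1 CPM. The clock list held 1 other tested gene, which was not called.

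Several genes that make or remove juvenile hormone and its precursors were lower in diapause when replicate 1 was left out. In all 10 queens 0 of the 13 genes of juvenile hormone, ecdysteroid and mevalonate metabolism were called. Without diapause replicate 1, 5 fell and 0 rose, 38.46% of the list against 15.7% of all genes. Juvenile hormone epoxide hydrolase 1-like (LOC100648328), which degrades the hormone, had 1891, 421.6, 371.5, 367.8 and 433.6 CPM in diapause and 1179, 1045, 568.5, 1555 and 1409 after CO2. The queens of diapause replicates 2 to 5 were below each CO2-treated queen, and replicate 1 was above all of them. Its log2 fold change was -0.72 ± 0.49 over 5 and 5 queens (edgeR adjusted p = 0.357) and -1.60 ± 0.42 over 4 and 5 (0.00897). Of the mevalonate pathway, which feeds hormone synthesis, 3 enzymes fell in the latter fit: isopentenyl-diphosphate Delta-isomerase (LOC100646012, -1.30 ± 0.32), mevalonate kinase (LOC100647908, -1.29 ± 0.35) and 3-hydroxy-3-methylglutaryl-coenzyme A reductase (LOC100651787, -0.84 ± 0.22). The synthase of the same pathway, hydroxymethylglutaryl-CoA synthase 1-like (LOC100649840), was not called in that fit, at 0.63 ± 0.40 (edgeR adjusted p = 0.241). The ecdysone receptor-like gene (LOC100646757) and farnesyl pyrophosphate synthase-like (LOC100650005) were not called in either fit. List members that were called only without diapause replicate 1 were chosen for naming, here and below, after their values were seen.

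**Figure D3:**
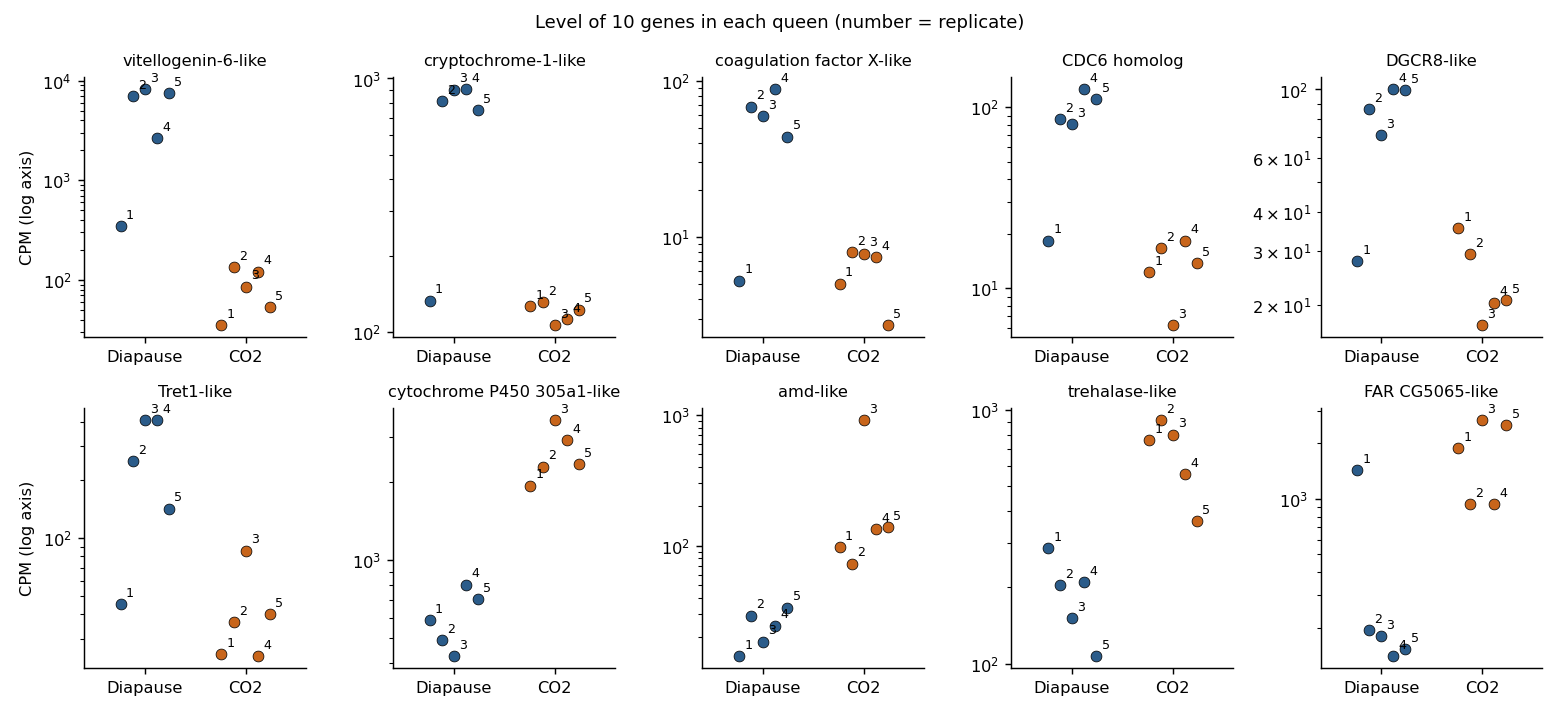
CPM (log axis) of 10 genes in each of the 5 diapause and 5 CO2-treated queens, with the replicate number beside each point. Diapause replicate 1 lies within or near the CO2-treated queens for cryptochrome-1-like (132.8), DGCR8-like (27.68) and fatty acyl-CoA reductase LOC100643779 (1427, titled FAR), and with the other diapause queens for cytochrome P450 305a1-like (586.1) and alpha-methyldopa hypersensitive protein-like LOC100648451 (14.27, titled amd-like).

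Some genes for licensing and repair of DNA were higher in diapause. Of 54 genes of DNA replication, repair and cell cycle, 5 rose and 0 fell over 5 and 5 queens, 9.259% of the list against 5.64% of all genes. With the line as block 3 were called. Cell division control protein 6 homolog (LOC100644374), which loads the replicative helicase onto origins, had 18.35, 86.48, 80.46, 126.4 and 110.9 CPM in diapause against 12.24, 16.73, 6.247, 18.36 and 13.83 after CO2. Diapause replicates 2 to 5 stood clear of the CO2-treated queens, while replicate 1 was level with their highest. The log2 fold change was 2.60 ± 0.47 (edgeR adjusted p = 0.00249). Cyclin-dependent kinase 14-like (LOC100652163), a cell cycle kinase, rose by 1.62 ± 0.34 (0.00644). RPA-interacting protein-like (LOC100644283), which carries the single-strand binding complex RPA into the nucleus, was at 157.9 to 688 CPM in diapause and 126.5 to 148.4 after CO2 and rose by 1.80 ± 0.33 (0.00279).

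The repair genes were less stable. RAD54-like (LOC100650016), of recombination repair, rose by 1.25 ± 0.31 (edgeR adjusted p = 0.0213) and its groups did not overlap, with 235.4 to 477.4 CPM in diapause and 106.2 to 205.2 after CO2. Its call was lost in 10 of the 25 fits that left out a library, with an adjusted p of 0.0511 to 0.0987: without any CO2-treated queen, mated replicate 4 or diapause replicates 2 to 5. The XP-C homolog (LOC100645266), which recognises damaged bases, rose by 1.70 ± 0.45 (edgeR adjusted p = 0.0268), but was not called with the line as block (0.0584) or in 11 of those 25 fits (0.0527 to 0.119), the 10 just named and that without founder post diapause replicate 5. Without diapause replicate 1, 9 members rose and 7 fell, 16.67% and 12.96% against 13.2% and 15.7% of all genes, near the background. Among those that fell were the GINS subunit PSF3-like (LOC100648468, -1.65 ± 0.50) and replication factor C subunit 5-like (LOC100643052, -1.20 ± 0.37), both of the replication fork, so the list did not move one way.

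Some RNA processing, chromatin and transcription genes were called higher in diapause in each fit without a library, while others of the same lists were not. The tRNA-splicing ligase RtcB homolog (LOC100647213), which joins the ends of cut tRNAs, had 108.4, 390.4, 378.3, 502 and 437 CPM in diapause and 83.46, 92.71, 103.1, 96.74 and 91.64 after CO2. No diapause queen was as low as any CO2-treated queen, and replicate 1 was just above the highest of them. It rose by 1.96 ± 0.33 (edgeR adjusted p = 0.00175). Microprocessor complex subunit DGCR8-like (LOC100642999), which helps cut microRNA precursors, rose by 1.63 ± 0.30 (0.00297). Its levels were 27.68, 86.48, 71.25, 100.4 and 99.71 CPM in diapause and 35.45, 29.28, 17.18, 20.34 and 20.75 after CO2, with replicate 1 alone inside the range of the other group. Chromatin assembly factor 1 subunit B-like (LOC100649086), which places histones on new DNA, had 17.19, 58.35, 54.04, 72.1 and 72.99 CPM against 13.34 to 17.61 and rose by 1.79 ± 0.31 (0.00175). Transcription initiation factor TFIID subunit 7-like (LOC100647652), of the basal transcription machinery, rose by 1.98 ± 0.32 (0.00157), and the lowest diapause queen, at 78.07 CPM, was above the highest CO2-treated queen, at 61.75. The U11/U12 48 kDa protein (LOC100643134), of the minor spliceosome, rose by 2.02 ± 0.40 (0.00532), and sirtuin-7-like (LOC100644651), a nuclear deacetylase in mammals, by 2.09 ± 0.40 (0.00335). These p values are edgeR adjusted p, and the 6 calls held in each of the 25 fits without a library and with the line as block.

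By list, 4 of 26 splicing genes rose, 15.38% against 5.64% of all genes, and 0 fell, or 2 rose with the line as block. With diapause replicate 1 left out, 4 rose and 1 fell, and 15.38% is then near the 13.2% of all genes. RtcB was 1 of the 4, and it splices tRNA, not pre-mRNA. Small nuclear ribonucleoprotein Sm D3-like (LOC100647682, 1.17 ± 0.29), a core protein of the spliceosome, was not called with the line as block (edgeR adjusted p = 0.0517) or in the fits that left out replicate 1, 2 or 4 of the CO2-treated queens or replicate 4 of the diapause queens (0.0526 to 0.0862). Splicing factor RBM22-like (LOC100643706, 1.13 ± 0.33) was not called with the line as block (0.0797) or in 14 of the 25 fits without a library (0.0534 to 0.152), those without any 1 of the CO2-treated queens, diapause replicate 2, 3, 4 or 5, mated replicate 1, 3 or 4, or replicate 5 of either group of founders. Of 36 chromatin and histone genes 2 rose, 5.556% against 5.64% of all genes, or 1 rose and 1 fell with the line as block. Leaving out diapause replicate 1 gave 5 that rose and 4 that fell, 13.89% and 11.11% against 13.2% and 15.7% of all genes, so this list was at the background. Polycomb protein Sfmbt-like (LOC100642969, 1.21 ± 0.37), at the threshold (edgeR adjusted p = 0.0498), was not called with the line as block (0.0797) and was called in 5 of the 25 fits without a library, those without diapause replicate 1 or replicate 1 or 3 of either group of founders. The genes that fell without diapause replicate 1 included histone deacetylase 6-like (LOC100646470, -1.51 ± 0.23), an enzyme that acts mainly on tubulin in mammals, and histone 3 (LOC100631090, -0.64 ± 0.22), which was not called when the line was a block as well (0.0538). A scm-like MBT domain gene (LOC100651322), of the Polycomb family of gene silencers, was called lower in each fit, at -1.24 ± 0.27 over 5 and 5 queens (edgeR adjusted p = 0.00875). It had 53.02, 22.92, 28.82, 26.36 and 23.61 CPM in diapause and 57.8 to 93.4 after CO2, without overlap.

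In the insulin and TOR list the 2 genes that rose were ribosomal protein S6 kinases that are not the classical TOR target. The delta-1-like gene (LOC100649545) had 41.08, 103.5, 100.1, 144.2 and 143.8 CPM in diapause against 36.94 to 43.91 after CO2 and rose by 1.35 ± 0.29 (edgeR adjusted p = 0.00776). Its call was lost without replicate 2 of the CO2-treated queens or replicate 5 of the diapause queens, with an adjusted p of 0.0534 to 0.0671. The alpha-5-like gene (LOC100647851), named for a nuclear kinase that acts on chromatin in mammals, was at the threshold, at 1.38 ± 0.42 (0.0498). It was not called with the line as block (0.0566) or in 17 of the 25 fits without a library (0.0532 to 0.193), those without replicate 1, 2, 4 or 5 of the CO2-treated queens or replicate 2, 3, 4 or 5 of the diapause queens, mated replicate 1, 3, 4 or 5, replicate 2, 4 or 5 of the founders post CO2, or replicate 4 or 5 of the founders post diapause. The 2 were 6.452% of the list, near the 5.64% of all genes. Once diapause replicate 1 was left out, 7 of 31 members rose and 5 fell, 22.58% and 16.13% against 13.2% and 15.7%. With the line as block, over all queens, 1 rose. Those that rose without diapause replicate 1 included tuberin-like (LOC100645475, 1.34 ± 0.39), a brake on the pathway, and the TORC2 subunit rictor (LOC100644653, 1.38 ± 0.44). In the fit with the line as block and without diapause replicate 1 rictor was not called (edgeR adjusted p = 0.0568). The insulin-like receptor-like gene (LOC100650952) had 51.85, 177.8, 210.2, 305.8 and 92.25 CPM in diapause and 107.3, 105.9, 159.3, 72.68 and 41.74 after CO2 and was not called (0.79 ± 0.54, edgeR adjusted p = 0.354). Insulin receptor substrate 1-like (LOC100644779) and the transcription factor forkhead box protein O-like (LOC100643217) were not called either, at 0.42 ± 0.50 and -0.46 ± 0.59. Some of the 31 are members by name only, since the search pattern also took in integrator, elongator and Golgi proteins and a proteasome activator.

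Trehalose, the blood sugar of insects, is moved by Tret1 transporters and split by trehalase, and over 5 and 5 queens 1 gene of each name was called, the transporter higher and the trehalase lower in diapause. The Tret1-like gene LOC100646027 had 45.45, 249.4, 407.1, 410.1 and 141.9 CPM in diapause and 24.79, 36.59, 85.9, 24.31 and 40.26 after CO2. Diapause replicates 2 to 5 were above the CO2-treated range and replicate 1 within it, and the gene rose by 2.60 ± 0.51 (edgeR adjusted p = 0.00505). When diapause replicate 1 was left out a further 3 Tret1-like genes rose, LOC100650588 (1.79 ± 0.44), LOC100649149 (1.62 ± 0.44) and LOC100644462 (2.01 ± 0.65). The last was not called when the line was a block as well (edgeR adjusted p = 0.0590). Other tested genes of the same name were not called with or without diapause replicate 1 and had signs both ways. Among them, without that queen, were LOC100644377 (-1.44 ± 0.98), LOC100644225 (-1.02 ± 0.80), LOC100644737 (0.63 ± 0.77) and LOC100644539 (0.12 ± 0.63).

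Of 27 genes of trehalose, glycogen and gluconeogenesis 1 rose and 1 fell over 5 and 5 queens, 2 rose and 1 fell with the line as block, and 4 rose and 4 fell without diapause replicate 1. That is 3.704% in each direction against 5.64% and 0.791% of all genes, and 14.81% in each against 13.2% and 15.7% without that queen, so the list was near the background there. Trehalase-like LOC100646078 had 285.2, 203.5, 151.3, 210.5 and 107.2 CPM in diapause and 760.5, 915.6, 801.2, 558.9 and 364.8 after CO2, and each diapause queen, replicate 1 included, was below each CO2-treated queen. It fell by 1.83 on the log2 scale (SE 0.44, edgeR adjusted p = 0.0178). The call was lost without replicate 1 or 2 of the CO2-treated queens or replicate 2, 3 or 5 of the diapause queens, where the adjusted p was 0.0505 to 0.0730. The other trehalase-like gene, LOC100647648, was not called and had the opposite sign, 0.65 ± 0.47 (edgeR adjusted p = 0.380), with higher levels in diapause in each of the 5 lines. Phosphoenolpyruvate carboxykinase (PEPCK), the entry step of sugar synthesis, had 7711 to 12690 CPM in diapause and 12580, 6627, 449.8, 5287 and 2969 after CO2 (0.90 ± 0.92, not called). Over 4 and 5 queens, with diapause replicate 1 left out, phosphoglucomutase-like (LOC100650132, -1.55 ± 0.38) and glucose-6-phosphate isomerase-like (LOC100643448, -1.46 ± 0.41), both at the fork between glycogen and glycolysis, and sorbitol dehydrogenase-like (LOC100643624, -1.78 ± 0.51), of polyol metabolism, fell.

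Several enzymes that lengthen fatty acids or turn them into alcohols, steps on the way to cuticular waxes and glandular lipids, were lower in diapause replicates 2 to 5 but not in replicate 1. Over 5 and 5 queens 1 of 17 genes of fatty acid synthesis and elongation rose, 5.882% against 5.64% of all genes, and 0 fell. With the line as block 0 were called. In the fit that left out diapause replicate 1, 1 rose and 8 fell, 47.06% of the list against 15.7% of all genes, and the list median went from -0.64 to -1.14. Elongase 6-like LOC100649601 had 1743 CPM in diapause replicate 1, 41.33 to 97.29 in diapause replicates 2 to 5 and 461.1 to 1695 after CO2. It fell by 3.89 on the log2 scale (SE 0.58, edgeR adjusted p = 7.93e-05) without diapause replicate 1, and with it the value was -1.28 (0.305). Elongase 6-like LOC100643669, at 39.33, 2.431, 4.403, 3.489 and 3.417 CPM in diapause and 25.44 to 51.87 after CO2, and LOC100649787 had the same layout, at -3.52 ± 0.47 and -4.27 ± 0.63 without diapause replicate 1. Another gene of that name, LOC100646637, went the other way, with 185.3, 3562, 3724, 2901 and 2055 CPM in diapause and 439.9, 677.5, 1371, 524.6 and 208.7 after CO2. Diapause replicates 2 to 5 were above each CO2-treated queen and replicate 1 was below each of them. It rose by 1.95 ± 0.58 (edgeR adjusted p = 0.0473), or by 2.17 ± 0.50 without diapause replicate 1. Its call over all queens was lost with the line as block (0.0555) and in 17 of the 25 fits without a library (0.0503 to 0.173), those without replicate 1, 2, 4 or 5 of the CO2-treated queens or replicate 2, 3, 4 or 5 of the diapause queens, mated replicate 1, 3 or 4, or replicate 2, 4 or 5 of either group of founders. These 4 genes may share reads where their sequences are close, and how such reads were counted is unknown here.

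Of 14 fatty acyl-CoA reductases, 2 fell and 0 rose over 5 and 5 queens, 14.29% lower against 0.791% of all genes. With the line as block 1 fell and 1 rose, and without diapause replicate 1, 5 fell and 1 rose, 35.71% lower against 15.7%. The CG5065-like gene LOC100643779 had 1427, 194.8, 179.3, 140.3 and 153.4 CPM in diapause and 1890, 933.3, 2680, 937.4 and 2508 after CO2. Diapause replicate 1 lay inside the CO2-treated range and the other 4 far below it. The log2 fold change was -2.09 ± 0.60 (edgeR adjusted p = 0.0380), or -3.50 ± 0.48 without diapause replicate 1. The call over all queens was lost in 12 of the 25 fits without a library (0.0540 to 0.119), those without any 1 of the CO2-treated queens, diapause replicate 2, 3, 4 or 5, mated replicate 4, or replicate 5 of either group of founders. The second, LOC100648083, fell by 1.56 (SE 0.46, 0.0446), was not called with the line as block (0.0506) and was lost without these and without mated replicate 1 or 3, 14 fits in all (0.0536 to 0.130). The reductase that rose without diapause replicate 1, LOC100647527 (1.83 ± 0.54), had 97.29 to 297.6 CPM in diapause replicates 2 to 5, 63.51 in replicate 1 and 9.37 to 65.74 after CO2. Long-chain fatty acid transport protein 4-like (LOC100652097), which brings fatty acids into cells, fell by 1.38 (SE 0.36, edgeR adjusted p = 0.0263) with no overlap between groups, at 437.1 to 890.6 CPM in diapause and 933.2 to 2208 after CO2. That call was lost with the line as block (0.0506) and without replicate 1, 3 or 5 of the CO2-treated queens or replicate 2, 3, 4 or 5 of the diapause queens (0.0550 to 0.103).

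Of the genes of lipid breakdown and transport 1 rose and 1 fell over 5 and 5 queens. That is 4.762% each way, against 5.64% and 0.791% of all genes. Phospholipase D1-like (LOC100652186), which cuts membrane phospholipids, rose by 1.11 ± 0.31 and pancreatic triacylglycerol lipase-like (LOC100645259) fell by 1.34 (SE 0.41), out of 21, and neither was called with the line as block (edgeR adjusted p = 0.0691 and 0.0677) or in 12 and 19 of the 25 fits without a library (0.0699 to 0.146 and 0.0507 to 0.127). The 12 were those that lost the reductase LOC100643779. The 19 left out replicate 1, 2, 4 or 5 of the CO2-treated queens, replicate 2, 3, 4 or 5 of the diapause queens, mated replicate 1, 3, 4 or 5, replicate 2, 4 or 5 of the founders post CO2, or replicate 2, 3, 4 or 5 of the founders post diapause. When diapause replicate 1 was left out, 2 rose and 6 fell, 9.524% and 28.57% against 13.2% and 15.7% of all genes. Carnitine O-palmitoyltransferase 2-like (LOC100646454), which admits fatty acids to mitochondria for burning, was 1 of the 6, at -1.12 ± 0.34.

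**Figure D4:**
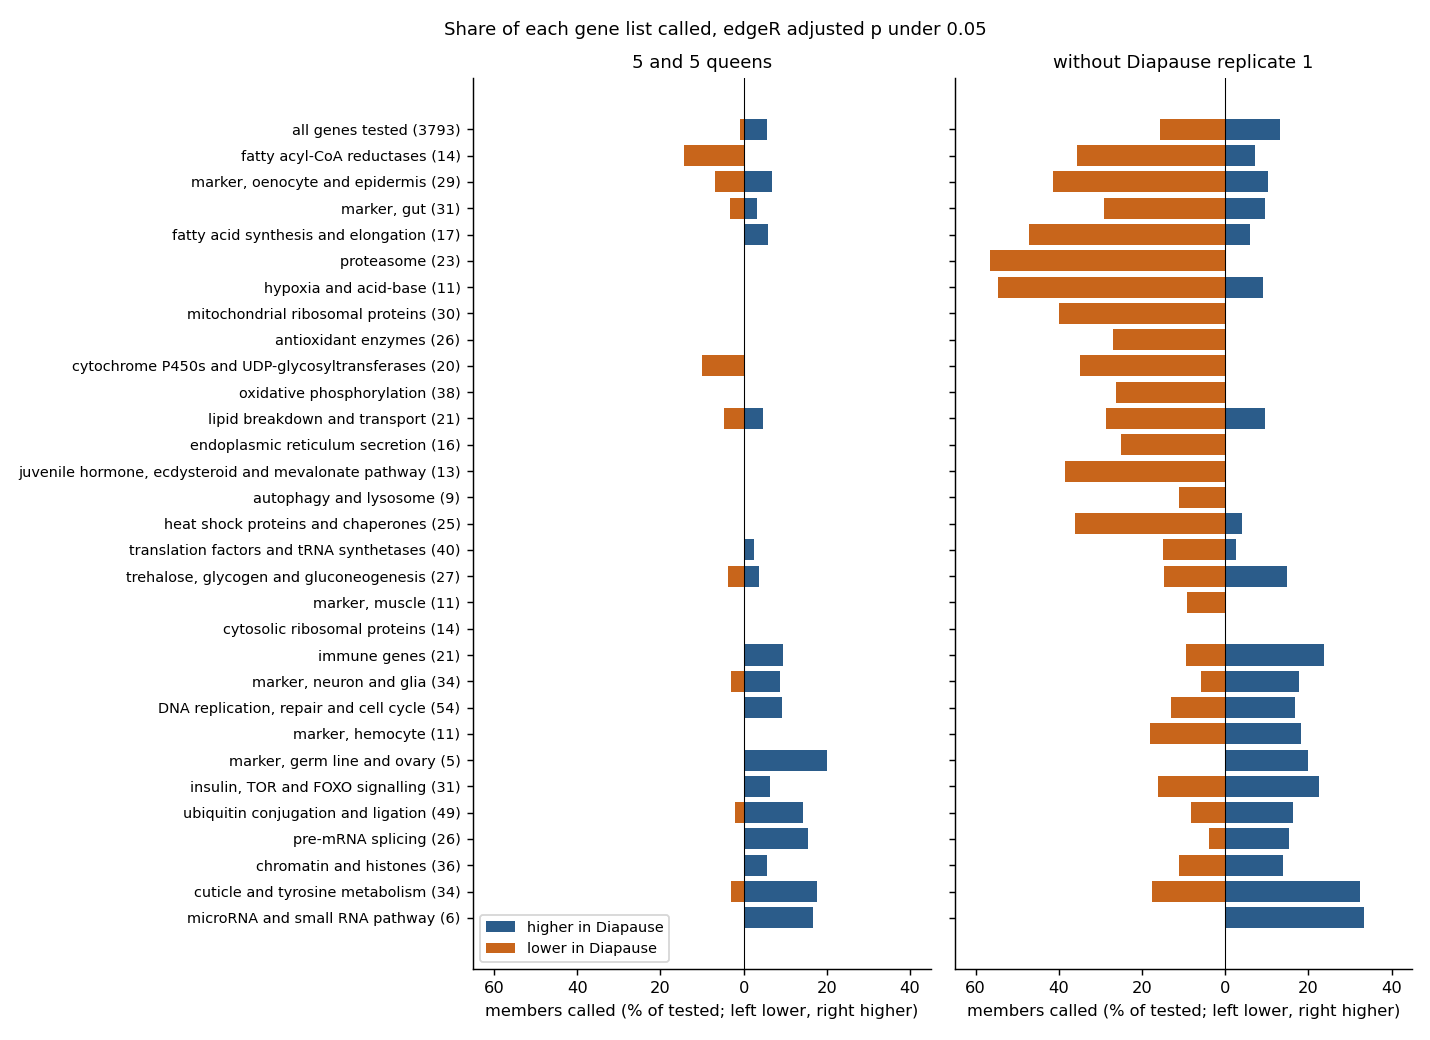
Share of the tested members of each gene list (number tested in parentheses) that were called higher (right of 0) or lower (left of 0) in diapause, with 5 and 5 queens (left panel) and without diapause replicate 1 (right panel). In the right panel 13 of 23 proteasome genes are lower and 0 higher, while the left panel shows 0 calls for that list.

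A part of the genes for making ATP and for clearing proteins was lower in diapause replicates 2 to 5 than after CO2, but not in replicate 1. Over 5 and 5 queens 0 of 38 oxidative phosphorylation genes, 0 of 30 mitochondrial ribosomal proteins and 0 of 23 proteasome genes were called. Over 4 and 5 queens, with diapause replicate 1 left out, 10, 12 and 13 of them fell and 0 rose in any of the 3 lists, which is 26.32%, 40% and 56.52% against 15.7% of all genes. The list medians without that queen were -0.76, -0.94 and -1.06, against -0.06 over all genes. With the line as block as well, 9, 10 and 11 fell. The summed level of the proteasome list was 10250 CPM in diapause replicate 1, 4221 to 6199 in diapause replicates 2 to 5 and 7814 to 11230 after CO2, so diapause replicate 1 lay within the CO2-treated range. For oxidative phosphorylation the sums were 15400, 5401 to 9657 and 6473 to 13950 CPM, and here diapause replicate 1 was above each CO2-treated queen.

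Among single genes of these lists, 28S ribosomal protein S9 of the mitochondrial ribosome (LOC100646251) had 345.8, 71.2, 59.65, 71.71 and 92.25 CPM in diapause and 242.2, 231.8, 159.3, 270.1 and 308 after CO2. Diapause replicates 2 to 5 were below each CO2-treated queen and replicate 1 above each. It fell by 1.78 (SE 0.23, edgeR adjusted p = 3.645e-05) without diapause replicate 1 and had -0.92 ± 0.37 (0.124) with it. The complex I subunit NADH dehydrogenase 1 beta subcomplex subunit 8 (LOC100647466) fell by 2.63 (SE 0.45) and ATP synthase subunit gamma (LOC100649465) by 1.62 (SE 0.35) without that queen. Proteasome subunit beta type-3-like (LOC100651018), of the catalytic core, was at 44.86 CPM in diapause replicate 1, 4.264 to 8.697 in the other diapause queens and 23.43 to 41.25 after CO2, and fell by 2.36 (SE 0.44). CDGSH iron-sulfur domain-containing protein 2 homolog (LOC100645929), a protein of mitochondrial and endoplasmic reticulum membranes, had 62.63, 4.515, 6.405, 2.713 and 5.902 CPM in diapause and 23.43 to 54.09 after CO2 and fell by 3.14 (SE 0.42, edgeR adjusted p = 4.02e-05) without diapause replicate 1. With it the value was -1.31 ± 0.61 (0.179). The 14 cytosolic ribosomal proteins had 0 calls in either direction with or without that queen, with medians of 0.02 and -0.11.

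Ubiquitin ligases, which mark proteins for the proteasome, had more members higher than lower in diapause, as did all genes tested (214 against 30). Of 49 genes of ubiquitin conjugation and ligation 7 rose and 1 fell over 5 and 5 queens. These were 14.29% and 2.041% of the list, against 5.64% and 0.791% of all genes. Without diapause replicate 1, 8 rose and 4 fell, 16.33% and 8.163% against 13.2% and 15.7%, so the rise was near the background there. With the line as block 2 rose and 0 fell. Cell growth regulator with RING finger domain protein 1-like (LOC100643334) had 269.2, 689.7, 748.2, 705.1 and 475.9 CPM in diapause and 190.5 to 235.6 after CO2, without overlap, and rose by 1.46 ± 0.26 (edgeR adjusted p = 0.00249) in each fit without a library. F-box only protein 21-like (LOC100646099), an adaptor of a ligase complex, was near the floor of the table at 0.874 CPM in diapause replicate 1, 8.39 to 38.83 in the others and 0.496 to 7.81 after CO2. It rose by 2.70 ± 0.73 (0.0310), and its call was lost without replicate 1, 2, 4 or 5 of the CO2-treated queens or replicate 2, 3 or 4 of the diapause queens (0.0625 to 0.134). A RING finger gene (LOC100642506), the member that fell (-1.31 ± 0.37, 0.0372), was not called with the line as block (0.0511) or in 12 of the 25 fits without a library (0.0625 to 0.129), the same 12 as for the reductase LOC100643779, and had -2.03 ± 0.32 without diapause replicate 1.

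Chaperones, antioxidant enzymes and genes of oxygen and acid-base balance gave 0 calls each over 5 and 5 queens, out of 25, 26 and 11. In the fit that left out diapause replicate 1, 9, 7 and 6 fell, which is 36%, 26.92% and 54.55% of the lists against 15.7% of all genes, and 1, 0 and 1 rose. Heat shock protein 83-like (LOC100645819), the Hsp90 of insects, fell by 1.33 (SE 0.40, edgeR adjusted p = 0.0167) in that fit, with 338.3 to 402.7 CPM in diapause replicates 2 to 5, 589.9 in replicate 1 and 511.1 to 1278 after CO2. Carbonic anhydrases turn CO2 into bicarbonate, and 2 of them fell: beta carbonic anhydrase 1-like (LOC100649122), with 20.93 to 46.59 CPM in diapause replicates 2 to 5, 120 in replicate 1 and 74.96 to 114.1 after CO2 (-1.45 ± 0.31, edgeR adjusted p = 0.00193), and carbonic anhydrase 2-like (LOC100648883, -1.17 ± 0.33, 0.0123). Mated queens, which had no gas, had 41.23 to 113.3 and 193.5 to 270.3 CPM of these genes, and CO2-treated queens had 165.7 to 329.5 of the second. Proton pump genes went both ways, with 3 subunits of the v-type ATPase lower and the 16 kDa proteolipid subunit (LOC100646343) higher, at 0.89 ± 0.33, and not called with the line as block (0.0936). L-lactate dehydrogenase-like (LOC100649579), the marker of fermentation in the list, was not called (-0.21, edgeR adjusted p = 0.886) and ran from 30.02 to 470.1 CPM after CO2. The Cu-Zn superoxide dismutase-like genes LOC100646662 and LOC100642760 were not called in either fit, at -0.35 ± 0.42 and 0.10 ± 0.57.

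Like trehalase-like LOC100646078, the next 2 genes were lower in diapause with diapause replicate 1 on the side of its label. Cytochrome P450 305a1-like (LOC100647578), of an insect family of oxidases, had 586.1, 491.4, 427.1, 805.4 and 710.7 CPM in diapause and 1943, 2300, 3484, 2908 and 2349 after CO2. The groups were apart by more than the spread in either, with replicate 1 in the middle of the diapause queens. It fell by 2.10 (SE 0.36, edgeR adjusted p = 0.00175), with differences of log2 CPM from -2.82 to -1.27 within the 5 lines, and mated queens had 2495 to 3579 CPM. Likewise LOC100648451, annotated as alpha-methyldopa hypersensitive protein-like, whose fly namesake makes catechols for the cuticle, had 14.27, 29.17, 18.41, 24.42 and 33.55 CPM in diapause and 97.26, 72.84, 916.7, 134.2 and 138.3 after CO2. Diapause replicate 1 was the lowest of its group, and the shallow CO2-treated replicate 3 was far above the rest of the other. The log2 fold change was -3.49 ± 0.75 (0.00678), or -2.25 without CO2-treated replicate 3, and the call held in each fit. NADPH--cytochrome P450 reductase-like (LOC100652262), the electron donor of microsomal P450s, was at 1060 to 2970 CPM in diapause and 2681 to 4831 after CO2 (-1.26 ± 0.38, 0.0450). It was not called with the line as block (0.0733) or in 18 of the 25 fits without a library (0.0511 to 0.134), those without any 1 of the CO2-treated queens, diapause replicate 2, 3, 4 or 5, mated replicate 1, 3, 4 or 5, replicate 4 or 5 of the founders post CO2, or replicate 2, 4 or 5 of the founders post diapause. Of the 20 P450s and UDP-glycosyltransferases 2 fell and 0 rose, 10% lower against 0.791% of all genes, or 1 fell with the line as block, and 7 fell without diapause replicate 1, 35% against 15.7%.

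Cuticle and tyrosine genes that were called were more often higher than lower in diapause. Of 34, 6 rose and 1 fell, 17.65% and 2.941% against 5.64% and 0.791% of all genes. With the line as block 2 rose and 1 fell. Without diapause replicate 1, 11 rose and 6 fell, 32.35% and 17.65% against 13.2% and 15.7%. Larval cuticle protein LCP-17-like (LOC100643233) rose by 3.60 ± 0.73 (edgeR adjusted p = 0.00597), but its levels were 5.244, 4.168, 58.44, 66.67 and 3.106 CPM in diapause and 3.137, 1.394, 3.123, 1.736 and 2.223 after CO2. Only diapause replicates 3 and 4, of line_296 and line_207, were clearly apart, and the groups overlapped. Protein yellow-like (LOC100651683), of a family that colours the fly cuticle, rose by 2.18 ± 0.55 (0.0233), with 80.99 to 728.3 CPM in diapause and 42.91 to 142.1 after CO2. The aminotransferase that starts the breakdown of tyrosine (LOC100647939) rose by 1.85 ± 0.50 (0.0301) without overlap, at 72.83, 234.8, 199.4, 70.54 and 58.08 CPM against 15.33 to 49.9. The calls of yellow and of the aminotransferase were lost in 5 and 6 of the 25 fits without a library (0.0743 to 0.110 and 0.0660 to 0.118), without replicate 2, 4 or 5 of the CO2-treated queens or replicate 2 or 3 of the diapause queens, and for the latter also CO2-treated replicate 1. With the line as block, the adjusted p was 0.0490 for yellow and 0.0699 for the aminotransferase. The remaining members that rose were laccase-4-like (LOC100642533), which hardens cuticle, and 2 tyrosine phosphatases (LOC100646666 and LOC100646759), which the word tyrosine brought into the list. A pair of endocuticle glycoproteins (LOC100643151 and LOC100643602) and flexible cuticle protein 12-like (LOC100647447) fell without diapause replicate 1, at -1.54, -2.13 and -2.27. The second was not called when the line was a block as well (edgeR adjusted p = 0.0593).

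The 2 immune genes called over all 10 queens were regulators, and both were higher in diapause. NF-kappa-B inhibitor cactus 2 (cactus-2), which holds back Toll signalling, had 976.5, 4510, 4083, 2624 and 2505 CPM in diapause and 848.7, 858, 1120, 1179 and 1005 after CO2. Diapause replicates 2 to 5 had more than any CO2-treated queen, and replicate 1 was inside their range. It rose by 1.55 ± 0.35 (edgeR adjusted p = 0.0101), a call lost without CO2-treated replicate 1 or 2 (0.05655 and 0.0566). Serpin B13-like (LOC100647974), a protease inhibitor, rose by 2.01 ± 0.47 (0.0134), a call lost without replicate 1, 2, 4 or 5 of the CO2-treated queens or replicate 2 of the diapause queens (0.0632 to 0.0802). Of 21 immune genes 2 rose and 0 fell, 9.524% higher against 5.64% of all genes, and 3 rose with the line as block. Over 4 and 5 queens, with diapause replicate 1 left out, 5 rose and 2 fell, 23.81% and 9.524% against 13.2% and 15.7%. The added genes that rose were protein toll-like (LOC100651716, 1.75 ± 0.52), the antimicrobial peptide hymenoptaecin (LOC100631061, 3.47 ± 1.12) and the ubiquitin thioesterase trabid-like (LOC100644296), while the 2 that fell were thioesterases, and all 3 of these entered the list by that word. Hymenoptaecin had 193.8 to 1118 CPM in diapause replicates 2 to 5, 16.31 in replicate 1 and 2.79 to 179.6 after CO2. Defensin (Def), another antimicrobial peptide, was not called, at -0.01 ± 1.00. Coagulation factor X-like (LOC100649373), named for a clotting protease of vertebrates, had the smallest p of the named genes, with 5.244, 68.07, 59.24, 88.37 and 43.8 CPM in diapause and 5.02, 8.016, 7.809, 7.442 and 2.717 after CO2. Replicate 1 was inside the CO2-treated range, the other 4 were clear of it, and the log2 fold change was 3.12 ± 0.50 (edgeR adjusted p = 0.00154).

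Further genes with calls in each of the 25 fits without a library belonged to signalling. Protein apterous-like (LOC100643210), a homeodomain factor known from the fly wing, rose by 2.83 ± 0.51 (edgeR adjusted p = 0.00253), with 10.78, 152.8, 136.5, 135.7 and 88.83 CPM in diapause and 9.674 to 26.55 after CO2. Its sign was reversed within line_141. The nicotinic acetylcholine receptor subunit alpha-like 2 (LOC100647301), an ion channel subunit, rose by 1.75 ± 0.33, and the G(i) subunit alpha-like gene (LOC100649199), which lowers cyclic AMP, by 1.38 ± 0.29. Arrestin domain-containing proteins 2 and 3 (LOC100649489 and LOC100643805), adaptors that help remove membrane receptors, rose by 2.77 ± 0.54 and 1.48 ± 0.29. Cation transport regulator-like protein 1 (LOC100649106), whose mammalian namesake breaks down glutathione, had 133.7, 1232, 1101, 710.5 and 1097 CPM in diapause and 153.9 to 376.4 after CO2 and rose by 2.01 ± 0.43. In each of these 6 genes diapause replicates 2 to 5 were above the CO2-treated range. Replicate 1 was below that range for the G(i) subunit and the cation transport regulator and inside it for the other 4.

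Some genes with no place in these lists were also lower. GPI mannosyltransferase 4-like (LOC100646590), which builds lipid anchors of surface proteins, had 39.91, 18.06, 18.01, 10.85 and 9.318 CPM in diapause and 45.18, 35.9, 73.4, 43.91 and 43.47 after CO2. Diapause replicate 1 was inside the CO2-treated range and the other 4 were below it. It fell by 1.31 (SE 0.31, edgeR adjusted p = 0.0164), a call lost without diapause replicate 2, 4 or 5 (0.0517 to 0.0686). Fatty-acid amide hydrolase 2-like (LOC100642514), which cleaves lipid amides in mammals, had 573.3, 122.6, 132.1, 85.66 and 147.5 CPM in diapause and 434.2 to 550.8 after CO2. It fell by 2.10 (SE 0.28, edgeR adjusted p = 4.02e-05) without diapause replicate 1, and with that queen, which was above each CO2-treated queen, it had -1.23 ± 0.40 (0.0623). Of 16 genes of endoplasmic reticulum secretion, 9 of autophagy and lysosome and 40 translation factors and tRNA synthetases, 0, 0 and 1 were called over 5 and 5 queens. The 1 gene, which rose, was 2.5% of its list, against 5.64% of all genes. When diapause replicate 1 was left out, 4, 1 and 6 of them fell, 25%, 11.11% and 15% against 15.7% of all genes. The translation gene that rose, SPT6-like (LOC100652318), works in transcription, at 1.69 ± 0.49 (edgeR adjusted p = 0.0433), and was not called with the line as block (0.0792) or in the 14 fits that lost the reductase LOC100648083 (0.0511 to 0.175). Of 6 microRNA and small RNA genes DGCR8-like was the 1 that rose, 16.67% against 5.64% of all genes. Without diapause replicate 1, 2 rose, 33.33% against 13.2%.

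**Figure D5:**
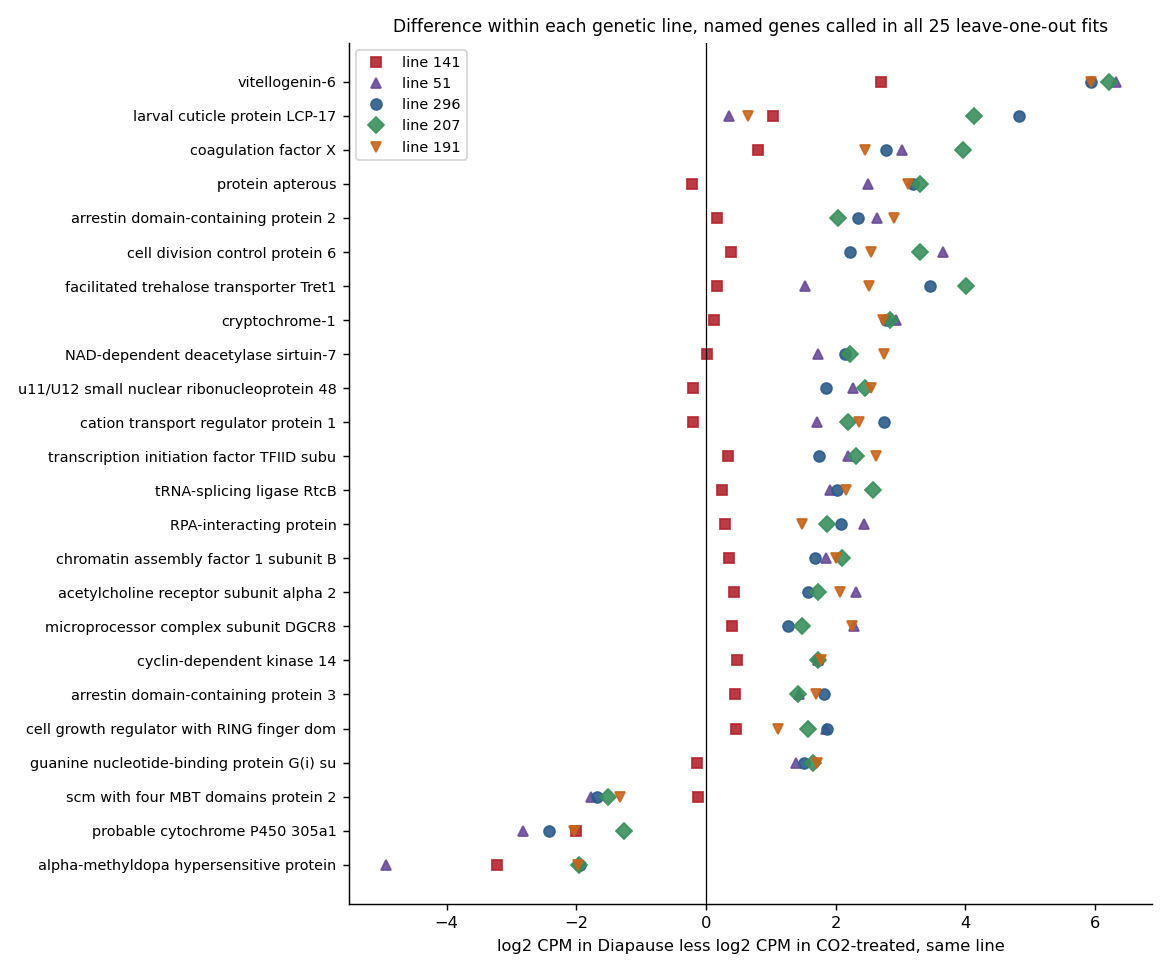
Difference of log2 CPM, diapause less CO2-treated, between the queens of the same genetic line for the 24 named genes called in each of the 25 fits that left out a library. Differences in line_141, the line of diapause replicate 1, lie near 0 for most genes that rose, at 0.12 for cryptochrome-1-like, while vitellogenin-6-like has 2.70 and cytochrome P450 305a1-like lies among its other lines.

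The pairs of the same line show how far 1 queen set the size of the difference. Between the queens of line_141, 5.642% of genes differed by at least 2-fold, against 33.51%, 36.28%, 44.37% and 32.77% in line_51, line_296, line_207 and line_191. For cryptochrome-1-like (LOC100647270) the difference was 0.12 in line_141 and 2.73 to 2.93 in the other 4 lines. DGCR8-like (LOC100642999) had 0.40 in line_141 and 1.26 to 2.29 in the others. Vitellogenin-6-like, P450 305a1-like and LOC100648451 differed by over 2-fold in line_141, as did LCP-17-like (LOC100643233) at 1.03, and these were 4 of the 24 genes.

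Markers of other tissues were looked at because the abdomen holds more than fat body. The 3 fat body markers of the table were the yolk and hexamerin genes above, with sums of 3402 to 10320 CPM in diapause and 229.6 to 19000 after CO2. Of 31 gut markers 1 rose and 1 fell over 5 and 5 queens, 3.226% each way against 5.64% and 0.791% of all genes. With the line as block 0 were called. Without diapause replicate 1, 3 rose and 9 fell, 9.677% and 29.03% against 13.2% and 15.7% of all genes. The member that rose over 5 and 5 queens was methionine aminopeptidase 1-like (LOC100651218), which trims new proteins in most cells and is no digestive enzyme. The gut markers summed to 12450 CPM in diapause replicate 1, 5170 to 6256 in the other diapause queens and 8333 to 25070 after CO2. Of the gut proteases, trypsin-1-like LOC100644694 had 44.71 to 1572 CPM after CO2, 508.6 in diapause replicate 1 and 9.318 to 20.82 in the other diapause queens. It fell by 4.72 (SE 1.68, edgeR adjusted p = 0.0392) without diapause replicate 1, and was not called when the line was a block as well (0.0642). Carboxypeptidase B-like (LOC100644223) went the other way, at 2.30 ± 0.68 without that queen (edgeR adjusted p = 0.0143). Venom serine protease 34-like (LOC100644867) fell by 1.96 (SE 0.52, edgeR adjusted p = 0.0285), with 371.3 to 1623 CPM in diapause and 2382 to 4779 after CO2, but was not called with the line as block (0.0517) or without replicate 1 or 4 of the CO2-treated queens or replicate 2, 3, 4 or 5 of the diapause queens (0.0670 to 0.0903). Of 29 oenocyte and epidermis markers, which hold the reductases and elongases above, 2 rose and 2 fell over 5 and 5 queens. That is 6.897% each way, against 5.64% and 0.791% of all genes. With the line as block 2 rose and 1 fell. Without diapause replicate 1, 3 rose and 12 fell, 10.34% and 41.38% against the same 13.2% and 15.7%. Their sums were 21450 CPM in diapause replicate 1, 8188 to 11480 in the others and 14210 to 31530 after CO2.

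Muscle markers (11 genes) had 0 calls over 5 and 5 queens and sums of 13450 to 35140 CPM in diapause and 16940 to 26330 after CO2. Troponin C, isoform 1-like (LOC100645885), a calcium sensor of muscle, was the member called without diapause replicate 1, at -4.31 ± 1.08. It had 1767 CPM in diapause replicate 1, 27.95 to 100.4 in the others and 484.1 to 2046 after CO2. Arginine kinase (Argk), which buffers ATP in muscle, had 1633, 528.9, 422.3, 441.1 and 343.2 CPM in diapause and 661.7 to 1353 after CO2, and was not called with or without replicate 1 (edgeR adjusted p = 0.560 and 0.0521), though with the line as block and without replicate 1 it passed (0.0463). Hemocyte markers had 0 calls of 11 over 5 and 5 queens. Without diapause replicate 1, 2 were higher and 2 lower, 18.18% each way against 13.2% and 15.7% of all genes. Hemocytin-like (LOC100642980) was at 68.64 to 207.4 CPM in diapause and 295.9 to 472.3 after CO2 (-1.70, edgeR adjusted p = 0.0986). It fell by 2.05 without diapause replicate 1 (0.0385), and was not called when the line was a block as well (0.0851). Of 34 neuron and glia markers 3 rose and 1 fell, 8.824% and 2.941% against 5.64% and 0.791% of all genes. With the line as block 1 rose and 0 fell. Without diapause replicate 1, 6 rose and 2 fell, 17.65% and 5.882% against 13.2% and 15.7%. Of 5 germ line markers 1 rose, 20% against 5.64%, the bicaudal D-related gene LOC100650109 (1.99 ± 0.53). Its call was lost with the line as block (edgeR adjusted p = 0.0555). It was also lost without replicate 1, 2, 4 or 5 of the CO2-treated queens or replicate 2, 3 or 4 of the diapause queens, mated replicate 4 or replicate 5 of either group of founders (0.0526 to 0.125). The part that shares of gut, muscle or epidermis in the sample had in the results above was not tested.

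The libraries also differed in how reads were spread along genes. The 3' to 5' coverage, the median log2 ratio of counts in the 3' to the 5' part of a gene's intervals over 858 genes and relative to each gene's mean, was 0.1675, 0.1345, 0.128, 0.1172 and 0.1115 in diapause and -0.1044, -0.1423, -0.1995, -0.005739 and -0.04597 after CO2. Each diapause library was above each CO2-treated library, and diapause replicate 1, which lay with the CO2-treated queens in gene levels, was the highest of the 10. The means differed by 0.231 (two-sided exact permutation test, p = 0.00794, the smallest that 252 splits of 5 and 5 can give), or by 0.222 without diapause replicate 1. A higher 3' share is a usual sign of RNA breakage before polyA selection. Its part in the gene differences was not tested, and it moved with the group label in each library.

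Set beside mated queens, the called genes lay closer to CO2-treated queens. Of the 214 genes higher in diapause, the mated mean was nearer the CO2-treated mean in 185, with median log2 differences of 1.19 for diapause less mated and -0.17 for CO2-treated less mated. Of the 30 lower genes it was nearer in 27, with medians of -1.27 and 0.14. The CO2-treated values enter both the choice of these genes and the comparison, so the counts are a description. Mated and CO2-treated queens also shared age and keeping. Genes without a product name made up 73 of the 214 higher and 8 of the 30 lower genes, against 29.74% of the genes tested, and non-coding transcripts made up 30 and 2, against 8.384% of the genes tested.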

How the data were processed

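Per the file headers, the authors deposited read counts for gene intervals in 25 queens, and an annotation with a score per gene model. The scores entered no result. The strand and coding exons of the gene models set which end of a gene was 5' or 3' for the coverage. Per the submitters' processing notes, Trimmomatic, TopHat and DESeq were used. Counting tool, strand setting and genome build were not stated in these sources, so overlapping genes cannot be told apart. The 22679 intervals were summed to 3861 genes, of which 3534 had an identifier found in RefSeq. Product names are those deposited with the counts. All genes keep their deposited identifiers, and no sequence is printed.

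Genes were filtered with filterByExpr (minimum count 10, minimum total 15), which left 3793, scaled by TMM and tested with edgeR 4.0.16's quasi-likelihood test in R 4.3.3, with Benjamini-Hochberg adjustment over the 3793 genes and a threshold of 0.05. All 5 groups shared 1 estimate of the spread (20 residual degrees of freedom, biological coefficient of variation 51.41%). The test gives no SE. The SE printed here is the size of the log2 fold change over the square root of the F statistic. It rests on that shared spread and not on the 2 groups alone. The steps were tested on simulated data. Alternatives used DESeq2 1.42.0 and limma 3.58.1 (voom). Other values were computed with pandas 2.3.3 and numpy 2.4.6 and drawn with matplotlib 3.10.9 under Python 3.11.15. Totals of the 10 libraries were 534806 to 3618454 counts, and p-values measure the spread between single queens.

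Both groups share the genetic lines in the labels. The deviations of queens of the same line correlated by 0.452, 0.36, 0.199, -0.0537 and 0.473 in line_141, line_51, line_296, line_207 and line_191. In the same order, the highest correlation of the diapause queen with a CO2-treated queen of another line was 0.41, 0.0534, 0.421, 0.449 and 0.235. In line_296 and line_207 that was above the value of the same line. The line served as a block in an alternative fit. There the term of line_426 rested on mated replicate 5 alone.

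Genes with a product name were eligible for naming if they were called and among the 12 in each direction with the smallest p, or among the 4 with the smallest p of a list and direction, or among the 6 in each direction with the smallest p without diapause replicate 1, or if their name matched a fixed pattern for storage proteins, clock, sugar, insulin, hormone and antioxidant genes. Full description needed the same sign in at least 4 of 5 lines. The members and lists were chosen with earlier results of these data known.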

Additional observations from a re-analysis of the deposited data

Results flagged for a closer look

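In 36 of 158 groups of 5 queens looked at, 1 queen lay far from the nearest of the other 4 for the size of the group's range. Chance alone gives about 5% of such groups, but this is no yardstick here, since some of the genes were named for their p without diapause replicate 1 and genes are correlated. Diapause replicate 1 was that queen in 31 of the 36.

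In genes higher in the other diapause queens than after CO2 it lay low. Its levels in CPM were 5.244 for LOC100649373, 108.4 for LOC100647213, 132.8 for LOC100647270, 17.19 for LOC100649086, 18.35 for LOC100644374, 10.78 for LOC100643210, 27.68 for LOC100642999, 82.44 for LOC100647301 and 185.3 for LOC100646637. They were 46.03 for LOC100652186, 18.06 for LOC100643758, 351.6 for LOC100647851, 133.7 for LOC100652163, 235.4 for LOC100650016, 97.01 for LOC100642969, 79.24 for LOC100652318, 10.49 for LOC100644651, 121.8 for LOC100649199 and 133.7 for LOC100649106 in the rest of these genes.

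In genes lower in the other diapause queens it lay high. Its levels in CPM were 53.02 for LOC100651322, 147.1 for LOC100646347, 155.9 for LOC100642506, 1427.0 for LOC100643779, 662.5 for LOC100648083, 345.8 for LOC100646251, 39.33 for LOC100643669, 62.63 for LOC100645929, 573.3 for LOC100642514, 136.6 for LOC100647012, 1633.0 for Argk and 1891.0 for LOC100648328. These genes include the fatty acyl-CoA reductases LOC100643779 and LOC100648083, the juvenile hormone epoxide hydrolase LOC100648328 and arginine kinase (Argk).

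CO2-treated replicate 3, the shallowest of the 10 libraries, lay high with 916.7 for LOC100648451, 221.8 for LOC100642506 and 140.6 for LOC100648761, in CPM. CO2-treated replicate 2 lay low with 36.94 for LOC100649545, and diapause replicate 4 lay low with 10.08 for LOC100645259. The part of depth in the values of CO2-treated replicate 3 was not tested.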

How the results depend on the processing

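Over all 25 libraries 244 genes were called, 214 higher in diapause and 30 lower. Leaving out 1 library gave 64 to 1093 genes, with 55 to 499 higher and 4 to 594 lower. The highest counts came without diapause replicate 1. The genetic line as replicate block gave 130 genes (115 higher, 15 lower), or 851 without diapause replicate 1 (386 higher, 465 lower). Fits on the 10 libraries alone gave 25 (20 higher, 5 lower), 577 with the line as block (291 higher, 286 lower), and 1785 without diapause replicate 1 (852 higher, 933 lower). DESeq2 gave 506 (411 higher, 95 lower), voom with quality weights 2588 (1336 higher, 1252 lower), and no filter on low counts 143 (127 higher, 16 lower). Leaving out the 2 shallow libraries, CO2-treated replicate 3 and mated replicate 2, together with diapause replicate 1 gave 1386 (607 higher, 779 lower). Voom gave diapause replicate 1 a weight of 0.1372, the lowest of the 10. Relative log expression scaling (280), counts of the main scaffold only (252) and leaving out the 2 shallow libraries alone (303) stayed within 1.5 times the count. The cause of these shifts was not tested. Of the 78 named genes 1, a superoxide dismutase-like gene that was not called, changed sign. The log2 fold change of LOC100642760 was 0.1016 over all queens and -0.1885 to 0.3571 in fits without 1 library, and negative (-0.1885, -0.0343 and -0.0933) without CO2-treated replicate 3, diapause replicate 1 and diapause replicate 3. It was at -0.0295 on 9 libraries, at -0.1886 without the 2 shallow libraries and at -0.314 without these and diapause replicate 1. The other named genes kept their direction, and 494 values of named genes under alternatives no longer passed the threshold. Of these, 48 came from the fit on the 10 libraries alone, out of 60 named genes called over all queens. With the line as block, 9 came from those 10 libraries. The coverage difference was 0.222 to 0.234 under its alternatives, each with the smallest p that the splits allow. A count of promoter motifs was not run, since no sequence was used here. The 2 shallow libraries have wider counting error, and with 5 queens per group the exact test cannot go below 0.007937.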
